A study of Mus musculus with 6 samples.

Results

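Interferon-stimulated genes are the genes that a cell switches on when interferon binds to its surface. The 44 genes described here were chosen by name. They are antiviral effectors, nucleic acid sensors and transcription factors that are commonly counted among the interferon-stimulated genes of the mouse. The rule itself uses no measured value, although earlier results of these data were known when the members were chosen. All 44 were found among the 20458 gene names measured in follicular B cells, and all 44 were among the 9879 genes whose mean over the genotypes reached 1 FPKM, the level required for a ratio to be reported. FPKM is a count of sequenced fragments corrected for the length of the transcript and the size of the library, so that levels of different genes can be set side by side.

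The study asked what happens to B cells that lack myosin IIa, the non-muscle myosin heavy chain encoded by Myh9. RNA was sequenced from follicular B cells of C57BL/6 mice, with 3 samples from the genotype CD23Cre+Myh9wt/fl (wt/fl below) and 3 from the genotype CD23Cre+Myh9fl/fl (fl/fl below). Both genotypes carried Cre recombinase under the CD23 promoter, which is active in mature B cells, and at least 1 Myh9 allele with LoxP sites, so the wt/fl cells could lose 1 copy of Myh9 and the fl/fl cells both. The comparison group was therefore haploinsufficient and not wild-type, and mice with Cre but without a floxed allele were not analysed here. The age and sex of the mice were not given in the labels, nor was any exposure to virus or interferon, and no culture step was described. The authors pooled the 3 samples of a genotype into 1 value per transcript group, so no value below has a spread between mice, no difference was tested, and read depth per sample is unknown. In place of a test, a gene was counted when its ratio passed 1.5-fold, and the share of all 9879 genes past the same fold is given as the background.

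Type I interferons bind the receptor made of Ifnar1 and Ifnar2, whose kinases are Jak1 and Tyk2. Stat2 and Irf9 are subunits of the factor ISGF3, which the receptor activates and which binds a DNA element called the interferon-stimulated response element (ISRE). Type II interferon acts through Ifngr1 and Ifngr2 and on promoter elements called gamma-activated sites (GAS). Many of the genes that are induced in this way keep a low level of expression without infection, and B cells express the sensors and receptors of the pathway.

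The promoters of the members were searched for both elements in the reference sequence. RefSeq (GRCm38.p6) held a window of 300 bases, from 250 bases before to 50 bases after an annotated start, for 35 of the 44 members. Windows for Dhx58, Ly6e, Mx1, Oas2, Parp14, Parp9, Rtp4, Usp18 and Zbp1 were not used here. An ISRE core, spelled GAAANNGAAA and searched on both strands with overlapping matches allowed, stood in the window of 17 of the 35 members (48.6%), compared with 3.99% of all 27025 gene symbols with a window. Shown here are stretches upstream of the start for the members on which the values below turn, namely Rsad2, Isg15 and Bst2, which were among the lowest ratios, Ifit1 and Ifit3, which are neighbors with ratios of opposite sign, Irgm1, the GTPase with the lowest ratio, and Stat2, a subunit of ISGF3. Capitals mark the ISRE cores, read 5′ to 3′ on the strand of the gene, where a core on the other strand appears as its reverse complement.
Rsad2, chr12:26456533-26456602, minus strand: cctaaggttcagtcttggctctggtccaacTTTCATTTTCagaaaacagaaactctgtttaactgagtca
Isg15, chr4:156200845-156200926, minus strand: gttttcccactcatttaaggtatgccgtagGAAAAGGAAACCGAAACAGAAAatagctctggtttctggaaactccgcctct
Bst2, chr8:71537557-71537632, minus strand: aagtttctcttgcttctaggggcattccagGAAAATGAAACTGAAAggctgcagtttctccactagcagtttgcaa
Ifit1, chr19:34640755-34640843, plus strand: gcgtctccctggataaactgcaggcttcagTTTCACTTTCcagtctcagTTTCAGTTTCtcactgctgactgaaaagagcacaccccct
Ifit3, chr19:34583343-34583446, plus strand: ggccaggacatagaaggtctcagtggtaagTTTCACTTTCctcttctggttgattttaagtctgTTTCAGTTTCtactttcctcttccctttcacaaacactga
Irgm1, chr11:48871421-48871480, minus strand: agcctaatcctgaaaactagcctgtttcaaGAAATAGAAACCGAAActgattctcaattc
Stat2, chr10:128270248-128270315, plus strand: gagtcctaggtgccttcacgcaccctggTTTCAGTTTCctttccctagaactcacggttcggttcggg

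Isg15 carried 3 overlapping cores, the first of them 78 bases before the start. Bst2 and Irgm1 carried 2 overlapping cores each, beginning 130 and 30 bases before the start. In Ifit1 and Ifit3 the 2 cores stood apart, at 104 and 85 bases before the start of Ifit1 and at 156 and 122 bases before that of Ifit3. Rsad2 had 1 core, 120 bases before the start, and Stat2 had 1 core at 222 bases. Trim25 and Lgals3bp, also among the lowest ratios, had windows without an ISRE core.
The GAS element, spelled TTCNNNGAA, was found in the windows of 10 of the 35 members (28.6%), compared with 9.55% of all gene symbols. The stretch around the GAS element of Irf1, a gene that responds to both types of interferon, is shown because Irf1 was the most highly expressed of the transcription factors among the members, with the element in capitals, 90 bases before the start.
Irf1, chr11:53769884-53769972, plus strand: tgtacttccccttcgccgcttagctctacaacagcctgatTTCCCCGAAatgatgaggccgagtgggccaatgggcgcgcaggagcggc
A match of letters describes the window and is not a measurement of binding, and the absence of a match says nothing of elements outside the window.

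The values of the members are pooled FPKM, given as the level in wt/fl and then in fl/fl. Ratios are log2 of fl/fl over wt/fl with 1 FPKM added to each level, which understates the difference of genes with few FPKM. Over all 9879 genes the median ratio was 0.0026 with quartiles at −0.11 and 0.11, and 49.5% of genes were lower in fl/fl. Myh9, the deleted gene, was at 50.6 and 21.1 FPKM, 41.7% of the haploinsufficient level. LoxP sites flanked only part of Myh9 in this study, whereas the level given is for the whole gene. It therefore does not measure how complete the deletion was. The label of the cells was checked against 13 follicular B cell markers, which were led by H2-Aa (6083 and 6545 FPKM), Cd79b (1638 and 1739 FPKM) and Cd79a (1098 and 1115 FPKM). Their median ratio was 0.060, with 0 of 13 past 1.5-fold, and Fcer2a, which encodes CD23, was at 439 and 588 FPKM.
Markers of other cells differed between the pooled values of the genotypes. All 9 neutrophil markers that reached a mean of 1 FPKM were lower in fl/fl, as were 49.5% of all genes, and 7 were past 1.5-fold, as were 1.53% of all genes, with a median ratio of −2.31 and a summed level of 387 and 73.3 FPKM over the 13 listed markers in the data. Of the interferon-stimulated genes, several are also expressed by myeloid cells. In bulk RNA of this kind, fewer cells of a type and less RNA per cell cannot be told apart.

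The interferon-stimulated genes were expressed over a wide range and were lower in fl/fl more often than higher, by small amounts. Ratios were below 0 for 32 of the 44 genes (72.7%) and above 0 for 12. The median ratio was −0.080, with quartiles at −0.17 and 0.0091, and the summed level of the 44 genes was 2414 FPKM for wt/fl and 2234 FPKM for fl/fl. Past 1.5-fold, 2 genes were lower in fl/fl, Rsad2 and Trim25, compared with a background of 1.53% of all genes, and 0 genes were higher, compared with a background of 0.79%. Past a smaller fold, at 0.32 on the log2 scale, 6 of the 44 genes (13.6%) were lower, compared with a background of 5.48%, and 0 were higher, compared with 4.6%. The 4 genes added by the lower fold were Isg15, Usp18, Bst2 and Lgals3bp. For 19 of the 44 genes (43.2%) the ratio was less than 0.1 away from 0, which was the case for 46.4% of all genes. Against the genes within 2-fold of its own level, the ratio of 20 members (45.5%) lay inside the quartiles. This was a little under the share that quartiles enclose by definition. Without a value per mouse, these counts describe the pooled values and not the genotypes.

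**Figure D1:**
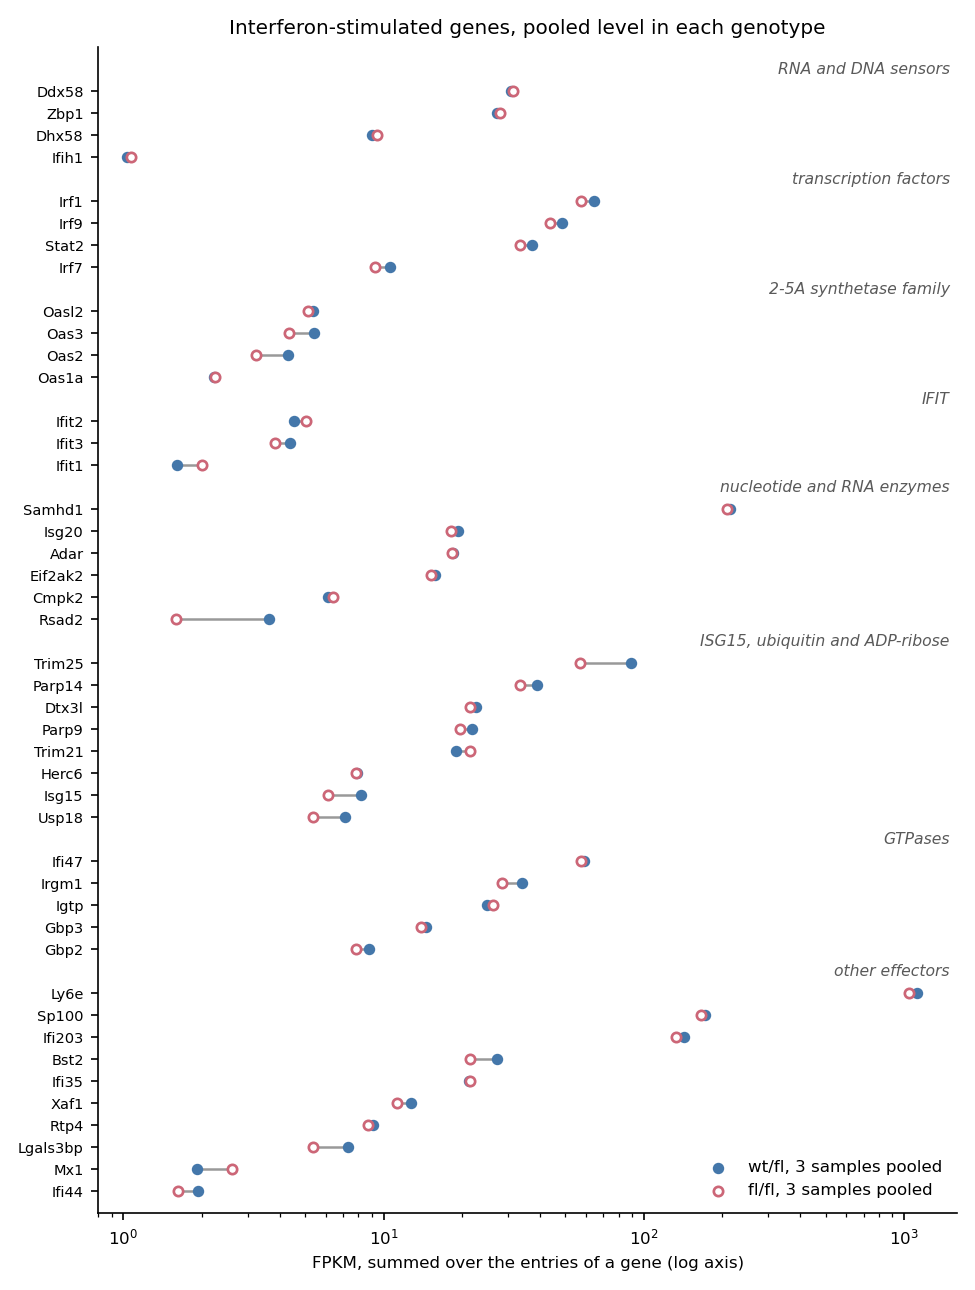
Level of each of the 44 interferon-stimulated genes in FPKM on a log axis, grouped by role, with filled points for wt/fl and open points for fl/fl, each the pooled value of 3 samples. Most pairs nearly coincide, the pair of Rsad2 is the farthest apart, and Trim25 is the gene past 1.5-fold with the higher level, at 89.1 and 57.0 FPKM.

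The level of expression differed far more between the members than between the genotypes. The mean of the genotypes ran from 1.05 FPKM for Ifih1 to 1087 FPKM for Ly6e, with a median of 14.9 FPKM, close to the median of 14.0 FPKM over all 9879 genes. Above 100 FPKM there were 4 members, Ly6e, Samhd1, Sp100 and Ifi203, and 10 members had a mean under 5 FPKM. These 10 included Ifih1, Oas1a, Ifit1, Mx1, Ifi44 and Rsad2, genes that are known for strong induction by type I interferon. Of the 24 members at or above a mean of 10 FPKM, 19 had the lower level in fl/fl and the median ratio was −0.080, while the median of all 5959 genes at that level was 0.013. Among the 10 members between 5 and 10 FPKM, 8 were lower, with a median of −0.10. Below 5 FPKM, 5 of 10 members were lower, and their ratios ran from −0.84 to 0.30. The members with fewer FPKM thus went both ways, and most of those with more FPKM lay slightly below 0.

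**Figure D2:**
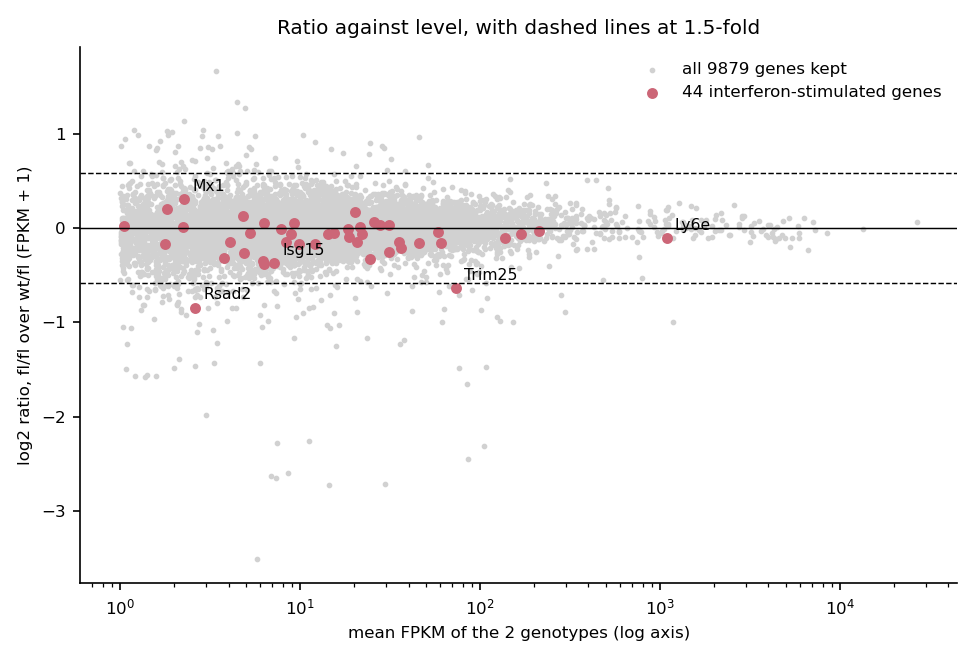
Log2 ratio of fl/fl over wt/fl (1 FPKM added) against the mean FPKM of the genotypes on a log axis, with all 9879 genes in grey, the 44 interferon-stimulated genes in red and dashed lines at 1.5-fold. Rsad2 (−0.84) and Trim25 (−0.64) lie below the lower line, no member lies above the upper line, and the grey points spread more widely at low levels.

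The sensors of viral nucleic acid did not differ by more than a few percent. Ddx58 encodes RIG-I, which binds viral RNA with a free triphosphate end, and was at 30.9 and 31.6 FPKM. Ifih1, which encodes the long-RNA sensor MDA5, was near the lowest level reported here, at 1.03 and 1.07 FPKM. Dhx58, which encodes the related helicase LGP2 that modulates both sensors, was at 9.02 and 9.43 FPKM. Zbp1, a sensor of Z-form nucleic acid, was at 27.4 and 28.0 FPKM. All 4 were slightly higher in fl/fl, with ratios between 0.027 and 0.058 and a median of 0.030, inside the quartiles of all genes.

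The transcription factors of the pathway were each lower in fl/fl by about the same amount when their entries were summed. Irf1, which activates interferon-responsive promoters and is itself induced by both interferon types, was at 64.2 and 57.5 FPKM. Irf7, the factor that amplifies interferon alpha production, was at 10.6 and 9.26 FPKM. Irf9, the DNA-binding subunit of ISGF3, was at 48.5 and 43.5 FPKM. Its partner Stat2 was at 37.3 and 33.5 FPKM. The 4 ratios lay between −0.17 and −0.15, below the lower quartile of all genes and far from the 1.5-fold line at 0.58. Among genes within 2-fold of the level of Irf1, 11.5% had a ratio as low or lower, and the share was 12.6% for Stat2, 11.8% for Irf9 and 16.0% for Irf7. The single entries of Irf7 and Irf9 differed among themselves, from −1.07 to 0.97 in Irf7 and from −0.65 to 0.36 in Irf9, and are described further on.

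The oligoadenylate synthetases, which sense double-stranded RNA and make the second messenger that activates RNase L, were expressed at a few FPKM each. Oas2 was at 4.28 and 3.23 FPKM, a ratio of −0.32. Oas3, which lies 3.25 kb from Oas2 on chromosome 5, was at 5.39 and 4.34 FPKM, a ratio of −0.26. Oas1a, which is 1 of several similar Oas1 genes in the mouse, was at 2.23 and 2.25 FPKM. The related Oasl2 was at 5.35 and 5.11 FPKM. The neighbors Oas2 and Oas3 were thus lower by similar amounts, whereas Oas1a was level between the genotypes, and the median ratio of the 4 genes was −0.16. Of the genes within 2-fold of their levels, 9.97% were as low as Oas2 or lower and 12.2% were as low as Oas3 or lower.

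The IFIT proteins bind viral RNA without a self-marked cap, and their genes form a cluster on chromosome 19. Ifit1 was at 1.61 and 2.01 FPKM, a ratio of 0.21. Ifit2 was at 4.53 and 5.03 FPKM, a ratio of 0.13. Ifit3 was at 4.35 and 3.82 FPKM, a ratio of −0.15. Ifit3, which lies between the other two, went the other way, although both Ifit1 and Ifit3 carried 2 ISRE cores in the stretches printed above. Ifit3 has a near-identical copy in the mouse genome, between which the counting could split fragments, and at these levels of expression the differences came to less than 1 FPKM.

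The enzymes that act on nucleotides and RNA held Rsad2, the member whose summed level had the lowest ratio. Rsad2 encodes viperin, which converts CTP into a chain terminator of viral RNA synthesis, and lies on chromosome 12 from 27127607 to 27141317 (positions here and below are taken to be those of mm9). Its level was 3.64 FPKM in the wt/fl cells and 1.59 FPKM in the fl/fl cells, 43.7% of the haploinsufficient level, with a ratio of −0.84. Among the 1937 genes within 2-fold of its level, 1.03% had a ratio as low or lower. Cmpk2, a nucleotide kinase that is encoded 12.8 kb away and is commonly induced together with Rsad2, was at 6.12 and 6.41 FPKM, a ratio of 0.057. The neighbors thus differed by 0.90 on the log2 scale. No ISRE core was found in the window of Cmpk2, while that of Rsad2 held the core printed above.
The other enzymes of this kind differed little. Samhd1, which depletes the nucleotides that reverse transcription needs, was at 215 and 210 FPKM. Isg20, an exonuclease that degrades RNA, was at 19.4 and 18.1 FPKM. Eif2ak2 encodes PKR, which halts translation on binding double-stranded RNA, and was at 15.7 and 15.2 FPKM. Adar, the editor that converts adenosine to inosine in double-stranded RNA, was at 18.4 and 18.3 FPKM. Of the 6 enzymes, 5 were lower in fl/fl, and apart from Rsad2 they lay within 0.1 of 0.

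The genes for ISG15, ubiquitin and ADP-ribose conjugation had a median ratio of −0.18, with 7 of 8 genes lower in fl/fl. Trim25, a ubiquitin ligase that acts on RIG-I signaling and also joins ISG15 to proteins, lies on chromosome 11 from 88860716 to 88881607 (mm9). Its level was 89.1 FPKM in the wt/fl cells and 57.0 FPKM in the fl/fl cells, 63.9% of the haploinsufficient level, with a ratio of −0.64. Among the 1694 genes within 2-fold of its level, 0.945% had a ratio as low or lower. Trim25 was the most highly expressed gene of this group, and its window held neither motif.
Isg15, the ubiquitin-like modifier itself, was at 8.21 and 6.12 FPKM, a ratio of −0.37. Usp18, the protease that removes ISG15 from proteins and also dampens the interferon receptor, was at 7.10 and 5.37 FPKM, a ratio of −0.35. The modifier and its protease were thus lower by similar amounts. Among genes within 2-fold of their levels, 4.31% were as low as Isg15 or lower and 5.68% were as low as Usp18 or lower. Herc6, the main ISG15 ligase of the mouse, was at 7.87 and 7.82 FPKM. Trim21, a ubiquitin ligase and antibody receptor in the cytosol, was the only gene of the group that was higher in fl/fl, at 19.0 and 21.5 FPKM.
Dtx3l and Parp9 encode partners in 1 complex of a ubiquitin ligase and an ADP-ribosyl transferase, and the data place both in the same stretch of chromosome 16, from 35926600 to 35972707 (mm9). Dtx3l was at 22.6 and 21.6 FPKM. Parp9 was at 21.9 and 19.6 FPKM. Their levels were nearly equal in each genotype. Since the library kit did not mark the strand, overlapping fragments of this pair could not be assigned with certainty. Parp14, another ADP-ribosyl transferase 55.1 kb away, was at 38.8 and 33.5 FPKM, a ratio of −0.21.

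The GTPases that are induced by interferon gamma and take part in defense against intracellular pathogens differed less. Irgm1 was at 34.2 and 28.5 FPKM, a ratio of −0.25, the lowest of the 5. Igtp, also called Irgm3, was at 25.1 and 26.3 FPKM. Ifi47 was at 58.9 and 57.3 FPKM. Of these immunity-related GTPases, only Irgm1 differed by more than 0.1. Among the guanylate-binding proteins, Gbp2 was at 8.79 and 7.87 FPKM. Gbp3, which lies 47.4 kb from Gbp2 on chromosome 3, was at 14.6 and 14.0 FPKM. All 5 genes belong to families of closely similar copies, so that fragments could have been split between copies, and the stretch given for Ifi47 is shared with 4 other gene names.

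The 10 other effectors had a median ratio of −0.10, with 8 below 0. Bst2, which encodes tetherin, a protein that holds budding virions at the cell surface, was at 27.3 and 21.5 FPKM, a ratio of −0.33. Lgals3bp, a secreted glycoprotein that binds galectins, was at 7.27 and 5.37 FPKM, a ratio of −0.38. Among genes within 2-fold of their levels, 2.03% were as low as Bst2 or lower and 4.52% were as low as Lgals3bp or lower. Bst2 is abundant on plasmacytoid dendritic cells. Of the 8 markers listed for these cells, Siglech (0.340 and 0.378 FPKM), Lair1 (0.829 and 0.875 FPKM), Cox6a2 (0.261 and 0.125 FPKM) and Klk1 (0.129 and 0.0415 FPKM) were under 1 FPKM in both genotypes. Of the other listed markers, Ccr9 was at 1.57 and 2.05 FPKM, a ratio of 0.24, and Pacsin1 and Ly6d were level. The part of plasmacytoid dendritic cells in the ratio of Bst2 was not tested.
Mx1, a GTPase that blocks viral nucleocapsids and is carried in a defective form by many laboratory strains including C57BL/6, had the highest ratio of the 44 genes, 0.30, at 1.92 and 2.60 FPKM. Among the 1812 genes within 2-fold of its level, 10.3% had a ratio as high or higher. Ly6e, a surface protein that restricts coronavirus entry and is high in resting lymphocytes, had by far the highest level, at 1127 and 1047 FPKM. Sp100, a component of nuclear bodies, was at 173 and 166 FPKM. Ifi203, a member of the HIN-200 family, which has many near-identical copies, was at 142 and 133 FPKM. These 3 highly expressed genes each lay between −0.11 and −0.058.
The chaperone-like Rtp4 was at 9.12 and 8.73 FPKM. Ifi35 was at 21.3 and 21.5 FPKM. Xaf1, a proapoptotic zinc finger protein, was at 12.8 and 11.3 FPKM. Ifi44 was at 1.94 and 1.62 FPKM, and none of these 4 genes lay past 0.32 in either direction.

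**Figure D3:**
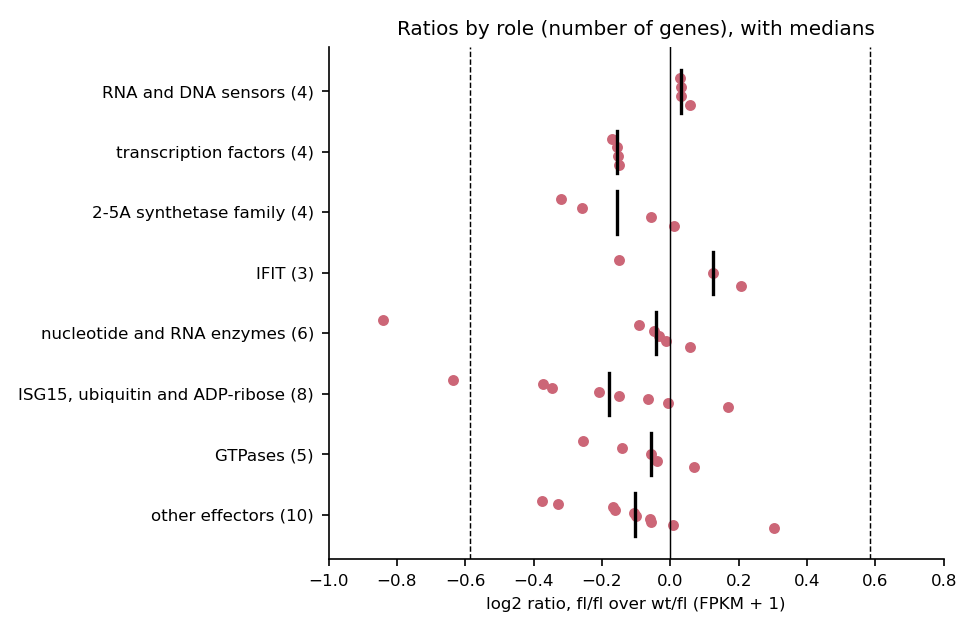
Log2 ratio of fl/fl over wt/fl (1 FPKM added) of the 44 genes in 8 role groups, 1 point per gene with the number of genes in brackets, a black bar at the median of the group and dashed lines at 1.5-fold. The 4 sensors lie just above 0, the 4 transcription factors lie close together near −0.15, and the 2 points past the lower line are Rsad2 and Trim25.

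The members were also set side by side by the elements in their promoter windows. The 17 members with an ISRE core had a median ratio of −0.10, with 11 below 0. The 18 members with a window but without a core had a median ratio of −0.062, with 15 below 0. The ratios of the members with a core ran from −0.84 (Rsad2) to 0.21 (Ifit1), so a core in the window went with ratios on both sides of 0. For the GAS element the medians were −0.023 with it (10 members, 6 lower) and −0.14 without it (25 members, 20 lower).

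Several members were present as more than 1 entry, each a set of transcripts with its own coding sequence, and the values above are the sums of these entries. Of the 44 genes, 36 had 1 entry and 8 had 2 or 3, which made 55 entries in all. For 6 members (Adar, Ifi203, Irf7, Irf9, Samhd1 and Zbp1) at least 2 entries had a mean of 1 FPKM or more. In 3 of these 6, at least 1 entry passed 1.5-fold, compared with 32.2% of the 1232 gene names with several such entries. In 1 of them, Irf7, entries passed it in both directions, compared with 6.01% of those names.
The Irf7 entries differed in opposite directions. The entry with the highest mean was at 5.79 and 2.24 FPKM, or 54.9% and 24.2% of the sum. A further entry was at 2.35 and 5.57 FPKM, or 22.3% and 60.2% of the sum. The remaining entry was at 2.41 and 1.45 FPKM. The sum thus hid ratios of −1.07 and 0.97, although it differed by −0.17 only.
In Adar, the larger entry was at 16.5 and 13.8 FPKM. A smaller entry of Adar was at 1.89 and 4.49 FPKM, or 10.2% and 24.6% of the sum. The Adar sum was level because its entries went in opposite directions.
In Irf9, the main entry was at 37.1 and 31.7 FPKM. The other entries of Irf9 were at 7.16 and 9.47 FPKM and at 4.17 and 2.29 FPKM. In Zbp1 the larger entry was higher in fl/fl (19.2 and 21.9 FPKM) and the smaller one lower (8.15 and 6.12 FPKM). The entries of Samhd1 kept their shares, at 131 and 126 FPKM and at 84.0 and 84.0 FPKM. Which protein isoform an entry stands for is not given with the values, and division of fragments between overlapping transcripts is an estimate, for which no error was analysed here.

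**Figure D4:**
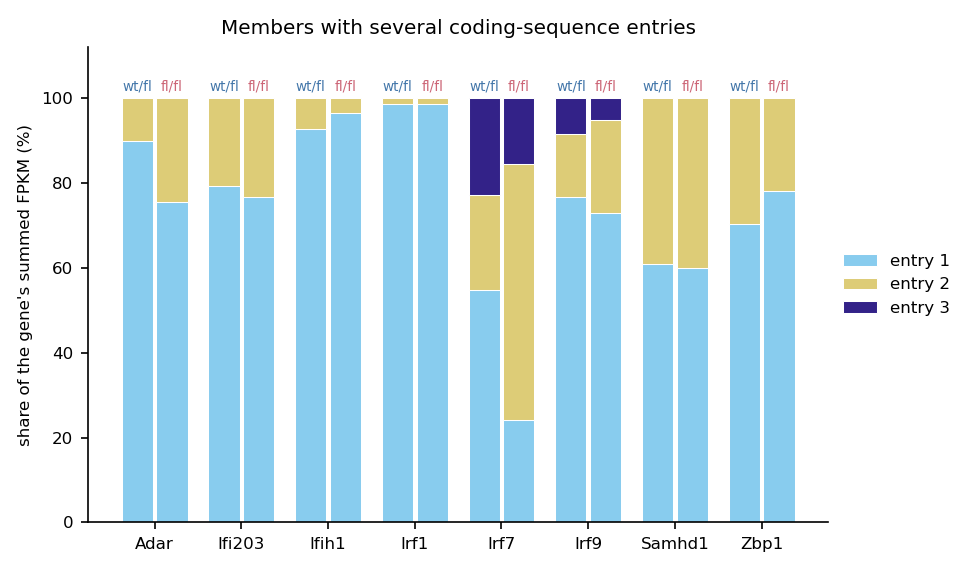
Share of the summed FPKM of a gene, in percent, taken by each of its entries in wt/fl (left bar) and fl/fl (right bar), for the 8 members with more than 1 entry, ordered by mean level from the bottom of the bar. The second entry of Irf7 takes 22.3% in wt/fl and 60.2% in fl/fl, while the shares of Samhd1 and Irf1 are nearly the same in both.

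The remaining genes of the pathway were described by lists. Of 22 interferon genes listed, 19 were among the gene names measured, and 14 of these were listed at 0 in both genotypes, most interferon alpha genes among them. Ifnk was the only interferon gene whose mean reached 1 FPKM, at 1.78 and 1.08 FPKM. The stretch given for Ifnk, on chromosome 4 from 34896322 to 35104733 (mm9), was far longer than that of any other interferon gene measured. Whether the fragments counted there came from Ifnk alone was not tested. Ifng was at 0.313 and 0.0919 FPKM. Ifna9 was listed at 0 in wt/fl and at 0.0779 FPKM in fl/fl. Apart from Ifnk, which was at about the level of the lowest members, the interferon genes were thus under 1 FPKM or at 0 in both genotypes.
The interferon receptors and their kinases had a median ratio of −0.041 over 8 genes, 6 of them below 0 and 0 past 1.5-fold. Jak1 was at 140 and 148 FPKM. The receptor subunits Ifngr2 and Ifngr1 were at 50.4 and 48.8 FPKM and at 45.0 and 43.3 FPKM. None of the 8 genes lay more than 0.1 from 0.
Feedback inhibitors of the pathway had a median of −0.032 over 9 genes, with 1 gene past 1.5-fold, lower, where the background was 1.53%. That gene was Socs3, an inhibitor of cytokine receptor kinases, at 2.90 and 1.22 FPKM, a ratio of −0.81, and it was left out by a minimum of 5 FPKM and did not pass 2-fold. The phosphatase Ptpn6 was at 311 and 335 FPKM. The repressor Irf2 was at 73.4 and 68.3 FPKM, and Ptpn2 was at 44.2 and 44.3 FPKM.
Genes for the induction of interferon, that is receptors, adaptors and kinases upstream of it, had a median of 0.021 over 18 genes, 12 of them higher. By summed entries the only gene past 1.5-fold, where the background was 1.53%, was Mavs, the mitochondrial adaptor on which RIG-I and MDA5 act, at 25.5 and 14.9 FPKM, a ratio of −0.74. By the highest entry of each gene 2 genes passed, Mavs and Irak1, where the background was 1.87%, and at 2-fold 0 did. Unc93b1, which carries Toll-like receptors to endosomes, was at 239 and 217 FPKM. Irf8 was at 106 and 109 FPKM, and Irf5 was at 70.4 and 70.8 FPKM. Mavs was thus lower in fl/fl while the sensors that signal through it, Ddx58 and Ifih1, were level.

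A longer list of other interferon-induced genes lay on the same side of 0 as the 44 members. Both lists were drawn up with earlier results of these data known and both rest on the same pooled values, so they are not independent. Of 84 genes listed, 63 reached a mean of 1 FPKM. Their median ratio was −0.057, and 45 of the 63 (71.4%) lay below 0. Past 1.5-fold, 4 of the 63 genes (6.35%) were lower, compared with the background of 1.53%, and 0 were higher. The count of 4 was 2 with a minimum of 5 FPKM, where the background was 0.866%. It was 1 at 2-fold (background 0.405%) and 8 at 0.32 on the log2 scale (background 5.48%). The most highly expressed were B2m, the light chain of MHC class I (4531 and 4128 FPKM), Shisa5 (975 and 945 FPKM) and Ifi30 (313 and 299.9 FPKM).
The 4 genes past 1.5-fold were Ifi27l2a, Ifitm3, Gbp8 and Ifitm1. Ifi27l2a was at 348 and 212 FPKM, a ratio of −0.71. Ifitm3, which blocks the fusion of enveloped viruses, was at 20.3 and 10.4 FPKM, a ratio of −0.90. Its neighbor Ifitm1 was at 4.01 and 1.34 FPKM, a ratio of −1.10, and Gbp8 was at 4.42 and 2.49 FPKM, a ratio of −0.64. Ifitm2 of the same family was level, at 4.95 and 4.89 FPKM. Ifitm1 and Ifitm3 are also expressed by myeloid cells.

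Markers of cells other than follicular B cells were set beside these values. The background for every count past 1.5-fold in these marker lists was 1.53% of all genes lower and 0.79% higher. The neutrophil markers S100a9 (175 and 34.5 FPKM), S100a8 (145 and 25.8 FPKM) and Camp (15.3 and 1.70 FPKM) were the most highly expressed of their list, Retnlg, Ngp, Lcn2 and Ltf were the others past 1.5-fold, and 0 of its 13 measured markers were at 0 in both genotypes. The macrophage and monocyte markers had a median ratio of −0.13 over 6 genes and a summed level of 91.9 and 62.6 FPKM. Of these, 1 gene was past 1.5-fold, Lyz2, at 72.6 and 44.9 FPKM, followed in level by Cd68 and Ly6c2. C1qb and C1qc of the same list were higher in fl/fl, with ratios of 0.377 and 0.222. The plasmacytoid dendritic cell markers, with Bst2 among them, had a median of 0.011 over 4 genes and a summed level of 960 and 963 FPKM, most of it from Ly6d, which B cells also express, followed by Bst2 and Pacsin1.
The natural killer cell markers had a median of −0.38 over 4 genes and summed to 32.4 and 22.8 FPKM, led by Gzma, Nkg7 and Klrd1, with Nkg7 (9.01 and 5.33 FPKM) past 1.5-fold. The T cell markers had a median of −0.12 over 6 genes and summed to 28.6 and 26.5 FPKM, led by Lck, Lat and Cd3d, with 0 past 1.5-fold. The plasma cell markers had a median of −0.36 over 4 genes and summed to 118 and 107 FPKM, led by Irf4 and Xbp1, which B cells also express, with Igj (5.40 and 0.617 FPKM) and Sdc1 (2.30 and 1.13 FPKM) past 1.5-fold and Tnfrsf17 listed at 0 in both genotypes.
The marginal zone B cell markers had a median of −0.14 over 7 genes and summed to 295 and 227 FPKM, led by Plac8, Pdia4 and Dtx1, with Plac8 (138 and 82.1 FPKM) and Cd9 (4.61 and 2.52 FPKM) past 1.5-fold. Of the erythroid markers, Beta-s was at 52.0 and 7.08 FPKM and was the only one whose mean reached 1 FPKM, followed by Alas2 and Slc4a1. The median ratio was thus below 0 for most of the other marker lists, as for the interferon-stimulated genes, and slightly above 0 for follicular B cell markers. Several lists were mixed, namely those of marginal zone B cells (5 lower, 2 higher), macrophages and monocytes (4 and 2), T cells (4 and 2) and natural killer cells (3 and 1). The plasmacytoid dendritic cell list had 1 lower and 3 higher, and the follicular B cell list 4 lower and 9 higher. The part of cells other than follicular B cells in the lower ratios of the interferon-stimulated genes was not tested.

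**Figure D5:**
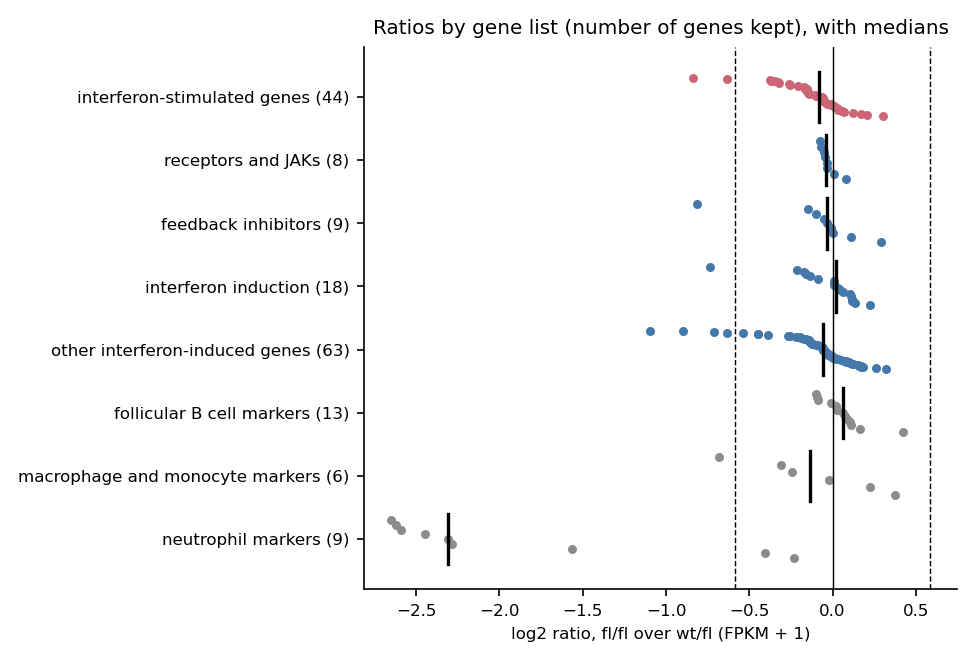
Log2 ratio of fl/fl over wt/fl (1 FPKM added) for the 44 interferon-stimulated genes (red), the other lists of the interferon pathway (blue) and 3 marker lists (grey), 1 point per gene with the number of genes in brackets, a black bar at the median and dashed lines at 1.5-fold. The median of the interferon-stimulated genes is −0.080, that of the follicular B cell markers is 0.060 and that of the neutrophil markers is −2.31.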

How the data were processed

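Follicular B cells were sorted as B220+AA4.1-CD23+CD21lo cells, and RNA was extracted with TRIzol and RNeasy columns, amplified with Ovation RNA-Seq V2 and made into TruSeq Nano DNA libraries, as stated in the labels and the study's methods. The authors' deposited table, in the layout of Cuffdiff, holds 1 pooled FPKM per genotype for each of 25017 entries, which are groups of transcripts with a shared coding sequence. The submitters' processing notes name Bowtie, TopHat and Cufflinks, without versions, and the build mm10 (GRCm38). Only 12.7% of 19165 gene names overlapped the gene of that name on GRCm38, so the positions are not those of that build. They are printed as mm9, the build before it, which was not checked against an mm9 annotation. The authors' columns of fold change, test statistic, p-value, q-value, status and significance were not used.

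The FPKM of the entries of a gene were summed, genes whose mean reached 1 FPKM were kept, and log2((fl/fl + 1)/(wt/fl + 1)) was computed. Depth per sample is unknown, replicate error cannot be given and no test was run. The FPKM of all entries summed to 595296 and 596105. Nothing in the labels says how many mice each sample holds. Genes of like level were those within 2-fold of the mean FPKM. Every member was named, with Myh9 and from each further list the 3 genes with the highest level and each gene past 1.5-fold. Others (Fcer2a, Siglech, Lair1, Cox6a2, Klk1, Ccr9, C1qb, C1qc, Ifitm2, Irak1) were named after their values were seen. The members and lists were chosen with earlier results of these data known, and 1 gene was left out of the lists and is not reported here. Promoter windows came from RefSeq (GRCm38.p6). Computations used Python 3.11.15, pandas 2.3.3, NumPy 2.4.6 and matplotlib 3.10.9 and were tested on simulated data. Alternatives were pseudocounts of 0.1 and 0.5, scaling to the upper quartile, centring on the median, the highest entry in place of the sum, other minimum levels, fold limits of 0.32 on the log2 scale and of 2-fold, and lists without near-identical copies or marker genes.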

Additional observations from a re-analysis of the deposited data

How the results depend on the processing

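Values of genes and medians were counted as moved when they changed by over 0.1 on the log2 scale, and counts when they changed by over 1.5 times. No member changed sign with a pseudocount of 0.1 or 0.5, upper quartile scaling, centring on the median of all genes or the highest entry in place of the sum, by which 43 members were kept and Ifih1 was not. The median ratio of the members was −0.080 and ran from −0.11 (highest entry) to −0.080. The number of members past the fold and lower in fl/fl, 2 at 1.5-fold, was 6 at a limit of 0.32 on the log2 scale and 0 at 2-fold. It was 3 by the highest entry, with Irf7 added. With a minimum mean of 5 FPKM it was 1, where Rsad2 is left out by its level and 7 members were higher in place of 12. With a pseudocount of 0.1 the ratio of Rsad2 was −1.15 and that of Mx1 0.42, and with 0.5 that of Rsad2 was −0.99. By the highest entry, Irf7 was at −1.07, Adar at −0.25 and Zbp1 at 0.18. Over all genes, 151 were past 1.5-fold lower and 78 higher, compared with 256 and 158 at a pseudocount of 0.1. The counts were 67 and 26 at a minimum of 5 FPKM and 541 and 454 at a limit of 0.32 on the log2 scale. They were 40 and 9 at 2-fold and 184 and 117 by the highest entry.

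No paired analysis was possible because the table holds 1 pooled value per genotype, and leaving out each replicate was not run for the same reason. The ratios of genes with few FPKM, Rsad2 among them, depend most on the pseudocount, and the error of every ratio is unknown.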
